A study of Rattus norvegicus with 18 samples.

Results

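The cytosolic ribosome is built from ribosomal RNA and a fixed set of ribosomal proteins, named Rpl for the large subunit and Rps for the small one. Their mRNAs are among the most abundant of the cell, and most begin with a run of C and T, the terminal oligopyrimidine tract, through which growth signalling by mTOR controls how much they are translated. Neurons use their ribosomes in the cell body and also in dendrites and axons, and mRNAs of ribosomal proteins are found there too. The genes followed here are those whose symbol on the array reads Rpl or Rps with a number and at most 1 of the letters a, x, y and l, together with Rplp1, Rplp2 and Rpsa. The S6 kinases, whose symbols begin alike, were left out. The rule found 75 of 22523 probes, for 72 symbols, with 45 probes for the large subunit and 30 for the small one. Of these, 68 probes (40 large, 28 small) were among the 11079 probes of the whole array kept for analysis, those whose detection p-value was 0.02 or lower on any of the arrays. Rplp0, Rps27l and Rps4y have no probe under these symbols and were not analysed here.

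The RNA came from primary cortical neurons of the rat. Lentivirus in the pLKO.1 vector, carrying either an shRNA against CHD5 (KD) or the scrambled control shRNA (C), was applied for 6 hours 1 day after plating, and cells were grown to day 5, 9 or 12. Both groups therefore received lentivirus, and every culture is a mixture of whatever cells the cortical preparation held. There were 3 replicates, a, b and c, of each of the 6 groups, 18 arrays in all, each an Illumina Sentrix Rat Ref-12 array with 50-base probes. The study's methods took neurons from embryos at day E18. The strain is not stated in the labels, and neither is which shRNA insert against CHD5 was used. The study names its CHD5 lentivirus 1 for the array experiment. No probe of the array is annotated to Chd5, so its mRNA was not analysed here. Levels are log2 signals, centred on the mean of each array and scaled to 1 common spread, so a scaled level of 4.5 lies 4.5 log2 units above the mean of that array's kept probes. Differences are on this log2 scale. A probe was called when the Benjamini-Hochberg adjusted p of limma, over all 11079 probes, was under 0.05. The labels do not say whether replicates came from separate cultures, so p-values measure the spread between these arrays, which may be technical.

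The annotated start of some member genes, such as Rpl10, Rps7 and Rps26, shows the tract. The 10 bases before the annotated start and the 20 from it are given 5′ to 3′ from RefSeq (build GRCr8), with the unbroken run of C and T that begins at the start in capitals. Rpl10, whose product completes the large subunit, lies at chrX:157205840-157205869 (+), Rps7 at chr6:50999426-50999455 (-), Rps26 at chr7:1643385-1643414 (-), Rpl13 at chr19:68062504-68062533 (+) and Rpl13a at chr1:104748894-104748923 (-).
Rpl10: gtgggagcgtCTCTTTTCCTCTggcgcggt
Rps7: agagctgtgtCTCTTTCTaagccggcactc
Rps26: ccgccgggtcCTCTTTCgagtcttggctcc
Rpl13: cggtgcccgaTCCTTTCCgctcggccgttc
Rpl13a: tcctttcctaggcggctgccgaagatggcg
Of the member probes, 52 matched a RefSeq start window by gene ID, for 51 genes. In 20 of these 51 genes (39.2%) the annotated start was a C that opened a run of at least 5 C or T on the coding strand, against 881 of all 33469 genes with a window (2.63%). The run of Rpl13 opens with T, so it is not among the 20. Rpl13a has a pyrimidine stretch just before its annotated start and none at it. The windows of Rpl4, Rpl5, Rpl26, Rps6 and Rpsa, not printed, held no such run either. These are matches of letters at annotated starts, which need not be the starts used in these cells.

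Of the 75 probes, 65 were detected on all 18 arrays, and Rplp2 and Rps16 were detected on 17. Rpl10l, a paralog of Rpl10 known from testis, was detected on 2 arrays. The other 7 probes passed the detection limit on no array, with signals between 51.7 and 96.9. They are the probes for Rpl11, Rpl12, Rpl34, Rpl38, Rps19, Rps28 and 1 of the 2 probes for Rpl36a. All 7 were designed on predicted transcript records (RefSeq XM). Of the 18 member probes on predicted records 8 were detected on all arrays, whereas all 57 probes on known records (RefSeq NM) were. The signals of these 7 probes therefore give no level for Rpl11, which joins Rpl5 and 5S RNA in the large subunit, for Rps19, the gene most often mutated in Diamond-Blackfan anaemia, or for Rpl38, a protein known for its role in translating Hox mRNAs. Rpl3l, the striated muscle paralog of Rpl3, was detected on all arrays with a median signal of 224. The gene IDs behind 7 members carry another symbol in RefSeq today: Rpl10l is Rpl10l1, the detected Rpl36a probe belongs to Rpl36al1, Rpl37 to Rpl37l1, and Rpl12, Rps28, Rps27a and Rps4x to IDs named as pseudogenes (Rpl12-ps1, Rps28-ps1, Rps27a-ps1 and Rps4x-ps9). The IDs of Rpl38 and of both Rps9 probes were not matched, and 65 members kept their symbol. Ribosomal proteins have many processed pseudogenes, and how far such copies share these probes was not tested.

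**Figure D1:**
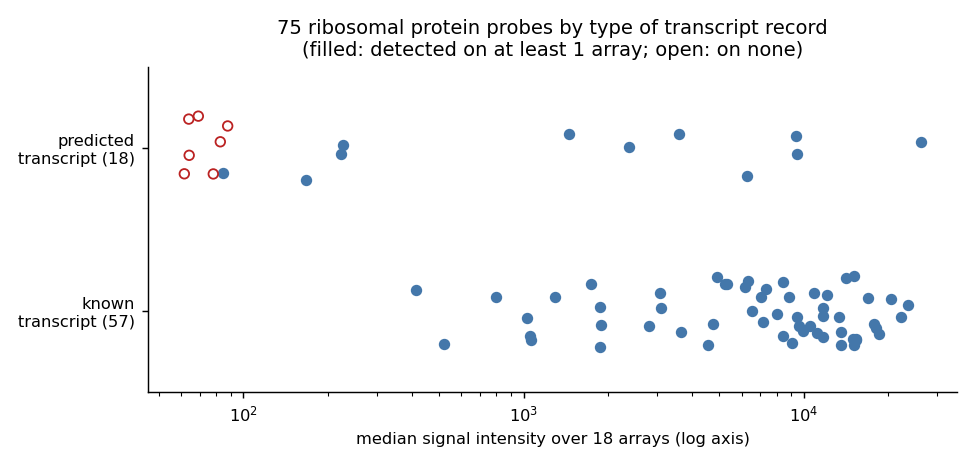
Median signal over the 18 arrays (log axis) of the 75 ribosomal protein probes, by the type of transcript record the probe was designed on, with filled points detected on at least 1 array and open points on none. All 7 open points, and also Rpl10l, Rplp2, Rpl3l and Rps16 at the low end, lie in the row of predicted records.

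The ribosomal protein probes were bright. They made up between 4.63% and 5.45% of the summed signal on 17 arrays, and between 14 and 21 of the 100 brightest probes of an array were members. The brightest member reached 22671 to 37527 on these arrays, where the brightest probe of any gene read 34470 to 45508. The day 9 control array of replicate b (D9_C_b) stood apart: its mean signal was 135, against 400.2 to 789 on the others, and the spread of its log2 signals was 1.11 against 1.72 to 2.02. Scaling to a common spread stretches such an array, and it did so most for bright probes. The median signal of the members was lowest there, at 1528 against 6051 to 12976, and their median scaled level was highest, at 5.91 against 4.16 to 4.65. Counts of called members are therefore given with and without D9_C_b.

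**Figure D2:**
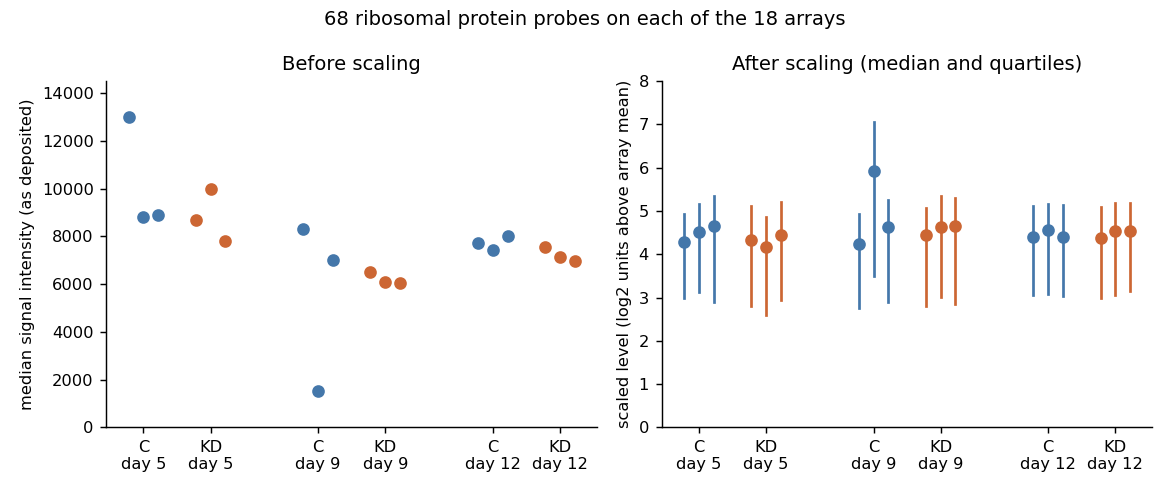
Median signal (left) and median scaled level with quartiles (right) of the 68 kept ribosomal protein probes on each array, control in blue and CHD5 shRNA in orange. The second day 9 control array is the dimmest before scaling, at 1528, and the highest after it, at 5.91.

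Apart from D9_C_b, the members' median scaled level lay between 4.16 and 4.65 on every array. At day 5 the median scaled level was 4.28, 4.52 and 4.65 in control cells and 4.32, 4.16 and 4.44 in CHD5 shRNA cells. At day 9 the control arrays other than D9_C_b read 4.24 and 4.63, and the CHD5 shRNA arrays 4.45, 4.64 and 4.64. At day 12 control arrays read 4.39, 4.55 and 4.40 and CHD5 shRNA arrays 4.37, 4.54 and 4.53. The groups of a day overlapped at all 3 times. For replicate a the deposit holds another run of each of its 6 arrays, and the members' scaled levels of that run differed from the first run by a median of 0.07 to 0.08 without regard to sign, the largest single difference being 0.61. With the sign kept, the median was higher in the second run of each array, by 0.01 to 0.07.

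CHD5 shRNA changed no ribosomal protein probe beyond the threshold at day 5, 9 or 12. At day 5, 0.171% of all probes were called and 0 of 68 members (limma; 1 member had an unadjusted p under 0.05, as had 5.66% of all probes). The members' median difference was -0.13, where the median of all probes was 0.01, and 59 of the 68 differences were below 0, while 52.3% of all probes were above 0. The members were measured on the same arrays, so the 59 are not independent observations. At day 9, 5.89% of all probes were called and 0 members, of which 6 had an unadjusted p under 0.05, against 20.2% of all probes, and the median was -0.35. At day 12, 5.47% of all probes were called and 0 members, none with an unadjusted p under 0.05, against 16% of all probes, and the median was 0.02. Weighting arrays by their quality, in place of equal weights, called 2, 8 and 4 members on the 3 days, with the share of all probes not given here.

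The day 9 median rested on D9_C_b. With the day 9 control array of replicate a left out, so that D9_C_b was 1 of 2 control arrays, 26 members were called at day 9, all lower in CHD5 shRNA cells. The share of all probes called in that fit is not given here, so the count alone is no result about the members. Without D9_C_b the members' medians were -0.13, 0.12 and 0.02 at days 5, 9 and 12, so that of day 9 changed sign. Of all probes 1.46%, 10.6% and 13% were then called on the 3 days. Among the members 1 was lower at day 5, Rpl26, and none was called at day 9 or 12, where 6 and 3 had an unadjusted p under 0.05, against 26.5% and 24.7% of all probes. Leaving out the array also narrowed the intervals. The 95% interval of the difference lay within 0.5 log2 of 0 for 57, 41 and 64 of the 68 members at days 5, 9 and 12, against 11, 16 and 17 with all arrays. At day 12, without D9_C_b, the intervals reached from -0.52 at the lowest to 0.58 at the highest. The medians of the large subunit members were -0.13, 0.11 and 0.02 on the 3 days and those of the small subunit -0.10, 0.15 and 0.05.

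**Figure D3:**
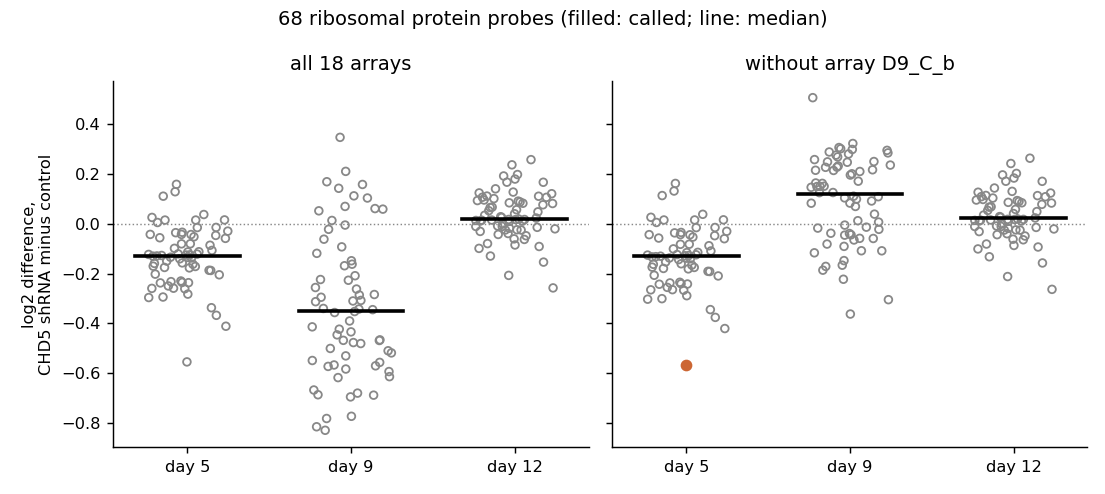
Log2 difference between CHD5 shRNA and control for each of the 68 probes at days 5, 9 and 12, with all arrays (left) and without D9_C_b (right), called probes filled and the median as a line. The day 9 median moves from -0.35 to 0.12, and the only called probe is 1 of Rpl26 at day 5 in the right panel.

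Rpl26, a large subunit protein beside the exit of the nascent chain that is also known to bind the p53 mRNA, had the largest fall of day 5. The brighter of its 2 probes read 4.25, 4.25 and 4.28 in control arrays and 3.82, 3.54 and 3.75 in CHD5 shRNA arrays, so the groups did not overlap. With all arrays its difference was -0.56 (SE 0.34, adjusted p = 0.999), and without D9_C_b it was -0.57 (SE 0.12, limma adjusted p = 0.0172). Its other probe read 3.64, 3.66 and 3.49 against 3.27, 3.17 and 3.24, a difference without D9_C_b of -0.38 (adjusted p = 0.179). By day 12 the brighter probe read 4.41, 4.53 and 4.25 in control and 4.28, 4.36 and 4.38 in CHD5 shRNA cells, and the groups overlapped.

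Rps3a, a small subunit protein at the mRNA exit, was lower in CHD5 shRNA arrays by point estimate on all 3 days, with differences of -0.42, -0.31 and -0.26 at days 5, 9 and 12 without D9_C_b and adjusted p-values of 0.105, 0.165 and 0.193. Its day 5 levels were 4.22, 4.11 and 3.69 in control and 3.70, 3.51 and 3.58 in CHD5 shRNA arrays, which overlapped by 1 array. Rps24, a small subunit protein, had the largest positive difference with all arrays at day 5, 0.16 (SE 0.13), and at day 9, 0.35 (SE 0.13), with adjusted p-values of 0.999 and 0.135. Without D9_C_b the largest at day 9 was that of Rpsa, 0.51 (SE 0.20, adjusted p = 0.116), and Rps24 stood at 0.31. The largest negative difference of day 9 with all arrays was that of Rpl23a, -0.83 (SE 0.49, adjusted p = 0.36), which became 0.15 (SE 0.18) without D9_C_b. Rplp2, which with Rplp1 forms the stalk that recruits elongation factors, had the largest positive difference of day 12, 0.26 (SE 0.13, adjusted p = 0.368), at signals between 67.2 and 210.4. Without D9_C_b its 95% interval was 0.03 to 0.50 and its adjusted p 0.151.

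Other well known members had small day 12 differences. The difference there, without D9_C_b, was 0.02 for Rps6 (95% interval -0.18 to 0.23), the S6 kinase substrate that is read as a sign of mTOR activity. It was -0.02 for Rps3 (-0.28 to 0.24), at the mRNA entry, and 0.10 for Rpsa (-0.28 to 0.48), the protein also known as the laminin receptor. Rps27a, made as a fusion with ubiquitin, differed by 0.10 (-0.21 to 0.42) and Rps4x by -0.09 (-0.33 to 0.14). In the large subunit Rpl3, near the peptidyl transferase centre, differed by -0.09 (-0.42 to 0.25), Rpl5 by -0.05 (-0.24 to 0.14), Rpl10 by 0.01 (-0.18 to 0.20), Rpl22 by 0.04 (-0.20 to 0.27) and the stalk protein Rplp1 by 0.11 (-0.19 to 0.42). The paralogs Rpl3l (-0.01) and Rpl10l (0.02, but detected on only 2 arrays) and the dim Rps16 (0.02) were as close to 0. All these intervals include 0, and none of them reaches beyond 0.5 in either direction.

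Whether the difference between CHD5 shRNA and control changed over time was tested as a change of that difference. From day 5 to 9 and from day 9 to 12, 0% of all probes and 0 members were called, with 1 member in each at an unadjusted p under 0.05, as had 7.3% and 2.36% of all probes. Without D9_C_b 0.623% and 0.00903% of all probes and again 0 members were called. Then 10 and 1 members had an unadjusted p under 0.05, as had 13.5% and 4.49% of all probes, and the members' medians turned from -0.23 to 0.23 and from 0.39 to -0.09. Between days 5 and 12, 0.153% of all probes and 0 members were called, with 1 at an unadjusted p under 0.05, as had 6.75% of all probes. By point estimate 65 of the 68 members moved up relative to control from day 5 to 12, with a median of 0.16 where that of all probes was 0.00, and 49.8% of all probes moved up. These members were measured on the same 12 arrays, so the 65 are not independent observations. Without D9_C_b, 2.36% of all probes were called and 1 member, Rpl4, a protein that lines the exit tunnel. Rpl4 read 4.54, 4.58 and 4.65 in control and 4.35, 4.26 and 4.38 in CHD5 shRNA arrays at day 5, and 4.48, 4.62 and 4.60 against 4.72, 4.78 and 4.91 at day 12. CHD5 shRNA arrays were below all control arrays at day 5 and above them at day 12. The change was 0.51 (SE 0.13, adjusted p = 0.0487) without D9_C_b and 0.50 (SE 0.35, adjusted p = 0.999) with it. Rpl15 had the largest change in the other direction, -0.24 (SE 0.26) with all arrays. From day 5 to 9, with all arrays, the extremes were Rpl13 (0.45) and Rpl23a (-0.70), and from day 9 to 12 Rpl23a (0.88) and Rpl15 (-0.30), none of them called.

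Over days in culture, few members were called with all arrays, and each time a smaller share than of all probes. In control cells from day 5 to 9, 22% of all probes were called and 4 of 68 members (5.88%), all lower. From day 9 to 12, 4.16% of all probes were called and 0 members, 8 of them with an unadjusted p under 0.05, against 20.1% of all probes. In CHD5 shRNA cells 9.33% of all probes and 1 member, lower, were called from day 5 to 9, and from day 9 to 12 it was 1.37% of all probes and 0 members, 6 with an unadjusted p under 0.05, against 9.82% of all probes. Day 12 against day 5, a comparison added after the data were seen because it uses no day 9 array, gave 23.6% of all probes and 2 members, both lower, in control cells, and 17% of all probes and 3 members, 2 higher and 1 lower, in CHD5 shRNA cells.

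Rpl13a, which is widely used as a reference gene in quantitative PCR and takes part in the silencing of inflammatory mRNAs, fell with time in both groups. Its scaled level on the day 5 control arrays was 3.24, 3.17 and 2.87, on those of day 9 it was 2.66, 2.53 and 2.69, and by day 12 it was 2.39, 2.41 and 2.46. In CHD5 shRNA cells the 3 days gave 2.83, 2.79 and 2.97, then 2.28, 2.43 and 2.67, then 2.42, 2.37 and 2.35. Every day 5 array lay above every later array of its group. Between days 5 and 9 it fell by 0.47 (SE 0.11, limma adjusted p = 0.00632) in control and by 0.40 (adjusted p = 0.0296) in CHD5 shRNA cells, and from day 5 to 12 by 0.67 (adjusted p = 0.000179) and 0.48 (adjusted p = 0.00518). All 4 falls were called with and without D9_C_b, and 3 of them without any single array. That of CHD5 shRNA cells from day 5 to 9 was lost without any 1 of 5 arrays, replicates a, b and c of day 5 and a and b of day 9 of these cells (highest adjusted p = 0.151). Both falls of CHD5 shRNA cells were also lost with median centring in place of scaling (adjusted p = 0.228 and 0.147), and that of control cells from day 5 to 9 when only the compared groups were fitted (adjusted p = 0.185). The change of the difference between the groups from day 5 to 12 was 0.19 (SE 0.16) and not called.

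Rpl5, the partner of Rpl11 in the 5S particle that also restrains Mdm2, read 1.19, 0.91 and 1.07 on the day 5 control arrays, then 0.63, -0.22 (D9_C_b) and 0.51 on those of day 9, and 0.68, 0.49 and 0.71 on those of day 12. All later control arrays lay below those of day 5. It fell by 0.75 (SE 0.16, adjusted p = 0.00283, and 0.151 when only the compared groups were fitted) from day 5 to 9 and by 0.43 (adjusted p = 0.0582) from day 5 to 12. In CHD5 shRNA cells its level was 0.90, 1.06 and 0.87, then 0.44, 0.47 and 0.49, then 0.46, 0.65 and 0.63. Without D9_C_b it fell between day 5 and both later days in both groups, by 0.49 (SE 0.10) and 0.44 in control and 0.49 and 0.38 in CHD5 shRNA cells, with adjusted p-values of 0.00143, 0.000701, 0.000714 and 0.00358. The other 2 called members of the control comparison of day 9 with day 5 were Rpl13, which fell by 0.44 (SE 0.13, adjusted p = 0.0229), and Rps7, which fell by 0.40 (SE 0.12, adjusted p = 0.0201). Rpl13 was also lost without day 5 control array b or c. Both were lost without D9_C_b (adjusted p = 0.0677 and 0.0627), where 20.7% of all probes and 3 members (Rpl5, Rpl13a and Rpl8, all lower) were called. In the same comparison with all arrays Rpsa had the largest rise, 1.43 (SE 0.58, adjusted p = 0.0848), and without D9_C_b its difference was 0.27. From day 9 to 12 in control cells the extremes with all arrays were Rpl37 (0.50) and Rpsa (-1.05), and without D9_C_b 6.23% of all probes and 0 members were called, 7 with an unadjusted p under 0.05, against 18.3% of all probes.

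Rps26, a small subunit protein at the mRNA exit channel, read 5.11, 5.11 and 4.71 in control cells at day 5 and 4.35, 4.54 and 4.50 at day 12, and fell by 0.51 (SE 0.18, adjusted p = 0.0471). The call was lost without any 1 of 14 of the 18 arrays (highest adjusted p = 0.159) and with median centring (adjusted p = 0.142), and without D9_C_b the fall was 0.52 (adjusted p = 0.000351). In CHD5 shRNA cells it read 4.87, 4.78 and 4.86 at day 5 and 4.75, 4.59 and 4.55 at day 12, a difference of -0.21 (adjusted p = 0.508). The change between the groups was 0.31 (SE 0.26, adjusted p = 0.999), so a difference between them was not shown. Rpl7 and Rpl37, large subunit proteins, rose in CHD5 shRNA cells from day 5 to 12. Rpl7 read 1.65, 2.0 and 1.53 at day 5 and 2.08, 2.58 and 2.81 at day 12, a rise of 0.76 (SE 0.22, adjusted p = 0.022). Rpl37 read 0.92, 1.26 and 0.94, then 1.29, 1.59 and 1.82, a rise of 0.52 (SE 0.14, adjusted p = 0.0163). In both, the lowest day 12 array lay just above the highest of day 5, and both calls were lost without CHD5 shRNA array a or c of day 5 or b or c of day 12, with adjusted p-values of up to 0.109 for Rpl37 and 0.127 for Rpl7. Median centring also ended both (adjusted p = 0.17 and 0.269). In control cells Rpl7 differed by 0.30 (adjusted p = 0.366) and Rpl37 by 0.21 (adjusted p = 0.323), with control arrays of Rpl7 at 2.48, 1.97 and 1.58 at day 5 and 2.27, 2.34 and 2.32 at day 12. An exact two-sided permutation test of 3 against 3 arrays gave 0.1 for each called probe, the smallest value it can give.

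**Figure D4:**
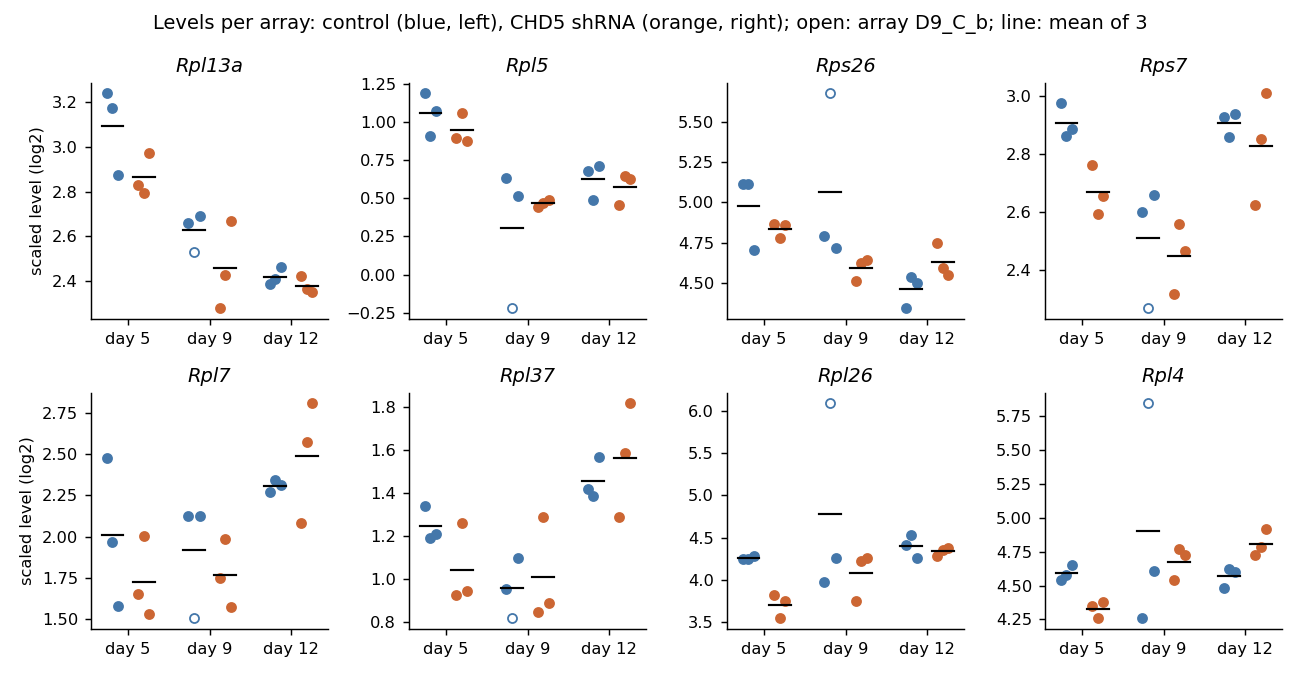
Scaled level of 8 members on each array over the 3 days, control in blue at the left of each pair and CHD5 shRNA in orange at the right, with the group mean as a line and D9_C_b as an open point. Rpl13a steps down from between 2.79 and 3.24 at day 5 to between 2.35 and 2.46 at day 12, and for Rps26, Rpl26 and Rpl4 the open point lies above all others while for Rpl5 and Rps7 it lies below them.

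Without D9_C_b the picture over days in CHD5 shRNA cells changed in number, and the members' median SE in comparisons of 3 with 3 arrays was 0.122, against 0.249 with all arrays. From day 5 to 9, 25.4% of all probes were called and 20 members, 17 higher and 3 lower. Between days 9 and 12 it was 4.91% of all probes and 3 members, Rpl7, Rpl37 and Rps7, all higher. Between days 5 and 12, 31.6% of all probes and 21 members (30.9%) were called, 18 higher and 3 lower. In control cells from day 5 to 12 it was 38.4% of all probes and 9 members (13.2%), 2 higher and 7 lower. Among the members lower in control cells were Rpl5, Rpl10, Rpl13, Rpl13a and Rps26, and the higher ones were Rpl21 and Rps4x. Of the 26 members called in either group, 4 (15.4%) were called in both, Rpl5 and Rpl13a lower and Rpl21 and Rps4x higher, against 49% of the 5206 probes of the whole array called in either. Called in CHD5 shRNA cells alone were 17 members (65.4%), against 18.3% of those probes, and in control cells alone 5 (19.2%), against 32.7%. Only for Rpl4 was the difference between the groups itself past the threshold.

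The direction of these counts depended on the scaling. With quantile normalization in its place, also without D9_C_b, the 18 higher and 3 lower members of CHD5 shRNA cells from day 5 to 12 became 10 and 11, the 17 and 3 from day 5 to 9 became 6 and 11, and the 2 and 7 of control cells from day 5 to 12 became 1 and 16. No member was called in opposite directions by the 2 scalings. In CHD5 shRNA cells 10 members were higher by both from day 5 to 12, among them Rpl4, Rpl7, Rpl21, Rpl23, Rpl24, Rpl26, Rpl37, Rps12 and Rps23, while Rpl5, Rpl13a and Rpl15 were lower by both. In control cells all 7 lower members were lower by both, and neither Rpl21 nor Rps4x was higher by both. The members' median from day 5 to 12 was 0.21 in CHD5 shRNA and 0.04 in control cells on the first scale and 0.06 and -0.10 on the second. The 34 brighter members moved most between scales in CHD5 shRNA cells, from a median of 0.23 to -0.03, and the 34 dimmer ones moved from 0.18 to 0.16.

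**Figure D5:**
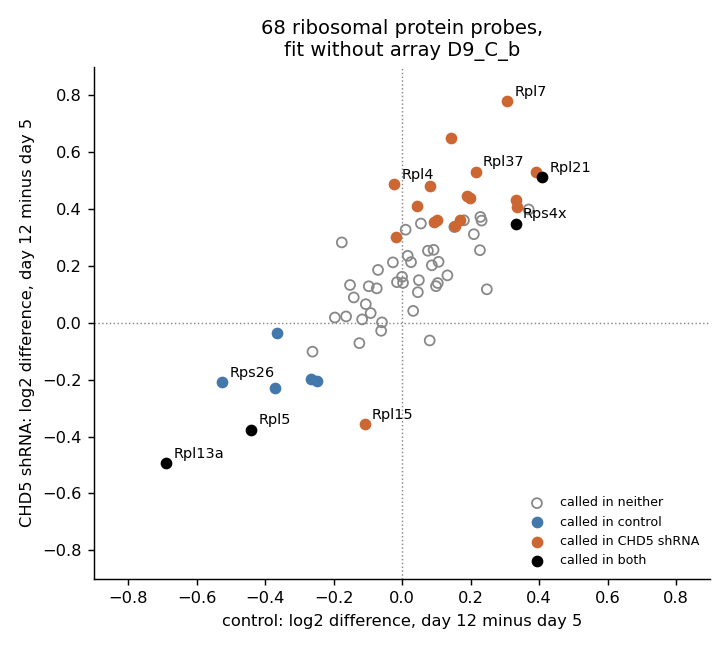
Log2 difference between day 12 and day 5 of the 68 probes in control (horizontal) and CHD5 shRNA cells (vertical), without D9_C_b, coloured by the group in which the probe was called. Rpl13a lies lowest in both groups, at -0.69 and -0.49. Of the 26 members called in either group, 17 (65.4%) were called in CHD5 shRNA cells alone and 5 (19.2%) in control cells alone. Of the 5206 probes of the whole array called in either group, these shares were 18.3% and 32.7%.

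Probe position differed among the members. Labelling began with an oligo-dT primer at the 3′ end of the mRNA, and probes of 20 of the 68 kept members start within 50 bases of the 5′ end of their transcript. The share of all kept probes that start within 50 bases is not given here, so no result about position is drawn from the next count. Of the 7 members called over days with all arrays (Rpl5, Rpl7, Rpl13, Rpl13a, Rpl37, Rps7 and Rps26), 6 are among the 20, Rpl13 being the exception. Their probes are given 5′ to 3′ as deposited, whole or, for Rpl5 and Rpl37, the first 30 of 50 bases, with the stretch that also lies in the RefSeq start window of the gene in capitals.
Rpl13a: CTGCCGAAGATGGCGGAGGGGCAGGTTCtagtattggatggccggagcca
Rpl5: TGCTACATACTGCGCATGCGTACGCGACTC
Rps7: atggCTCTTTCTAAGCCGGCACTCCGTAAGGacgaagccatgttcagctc
Rps26: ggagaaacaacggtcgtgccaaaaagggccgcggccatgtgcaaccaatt
Rpl7: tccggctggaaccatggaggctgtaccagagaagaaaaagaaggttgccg
Rpl37: tccggtctctttggcctcgccggtagaagc
Rpl13: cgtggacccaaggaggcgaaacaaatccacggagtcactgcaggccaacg
The Rpl13a probe begins at base 6 of its transcript in the file. Its match begins at base 6 counted from the annotated RefSeq start, and for Rpl5 both are base 19. The Rps7 probe carries the whole pyrimidine run printed for that gene above. In control cells from day 5 to 12, without D9_C_b, the median of the 20 members with such probes was -0.10 and that of the other 48 was 0.08, and in CHD5 shRNA cells it was 0.11 and 0.25. Called members were 4 of 20 and 5 of 48 in control and 7 of 20 and 14 of 48 in CHD5 shRNA cells. Of all probes, 38.4% and 31.6% were called in these 2 comparisons. In CHD5 shRNA cells from day 5 to 9, also without D9_C_b, called members were 2 of 20 and 18 of 48, the other way round. There 25.4% of all probes were called. RNA integrity values are not among the data used here, and the part that probe position has in these differences was not tested.

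Other genes of translation gave the calls below between CHD5 shRNA and control, with counts from all arrays unless stated. Of all probes, 0.171%, 5.89% and 5.47% were called at days 5, 9 and 12, and 1.46%, 10.6% and 13% without D9_C_b. The lists are short, so their counts are not read as a result about them. Of 14 probes for elongation factors and other mRNAs with the oligopyrimidine tract, 0 were called on any day (1 lower each at days 5 and 12 without D9_C_b), with medians of -0.10, -0.21 and -0.01. Of 26 probes for initiation factors 0, 1 and 1 were called, Eif2b3, a subunit of the exchange factor of eIF2, higher by 0.44 at day 9 (adjusted p = 0.027) and Eif4g3, a scaffold of cap binding, higher by 0.46 at day 12 (adjusted p = 0.0112). Of 58 probes for mitochondrial ribosomal proteins, 1 was called at day 5 and 2 each at days 9 and 12 (1, 4 and 4 without D9_C_b). Mrpl21 was lower on all 3 days, with differences of -0.53, -0.49 and -0.63 (adjusted p = 0.0228, 0.00621 and 0.000664), and Mrpl53 was higher by 0.42 at day 9 and 0.45 at day 12 (adjusted p = 0.0203 and 0.0114). Of 29 probes for ribosome biogenesis and RNA polymerase I, 1 was called, Nol5a (Nop56, of the box C/D particles), higher by 0.45 at day 12 (adjusted p = 0.0255). Of 18 probes for growth signalling 1 was called, Frap1 (mTOR), higher by 0.37 at day 12 (adjusted p = 0.0117). Without D9_C_b the days 9 and 12 gave 2 and 2 calls among initiation factors, 2 and 1 among biogenesis probes and 0 and 3 in growth signalling. The 2 probes for ribosomal proteins outside the naming rule were not called.

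Over days, more probes for factors that build or load the ribosome fell than rose. Between days 5 and 12, 6 of 29 biogenesis probes fell in control cells and 4 in CHD5 shRNA cells, none rose with all arrays, and the medians were -0.21 and -0.16. Among them Nola1 (Gar1, of the pseudouridylation particles) fell by 0.51 in both. Of 26 initiation factor probes 5 and 4 fell and none rose, with medians of -0.19 and -0.13, Eif2s2 falling by 0.46 and 0.44. Eif4ebp1, the mTOR target that holds back cap binding, fell by 1.31 and 1.02. The mitochondrial ribosomal proteins had 2 higher and 7 lower probes in control and 2 and 2 in CHD5 shRNA cells, with medians of -0.04 and 0.00. The neuronal elongation factor Eef1a2 rose by 0.74 and 0.83. The members' own medians with all arrays were 0.04 and 0.20. All these calls are from the fit with all arrays, where 23.6% and 17% of all probes were called. The called shares of the biogenesis and initiation factor lists were below these. Of all probes 1233 were called higher and 1383 lower in control cells, and 937 higher and 948 lower in CHD5 shRNA cells. Without D9_C_b the lower probes were 8 in each group for biogenesis, with 1 higher in CHD5 shRNA cells, and 11 and 8 for initiation factors, and the mitochondrial list had 8 higher and 15 lower in control and 6 and 11 in CHD5 shRNA cells. In that fit 38.4% of all probes were called in control (1926 higher, 2327 lower) and 31.6% in CHD5 shRNA cells (1539 higher, 1964 lower).

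Markers of other cells also moved over days and between the groups. All 8 probes for pan-neuronal markers were detected on all arrays. Of these, 1 (Tubb3) was called between the groups, higher in CHD5 shRNA cells by 0.55 at day 9 and 0.53 at day 12. From day 5 to 12, 1 pan-neuronal probe was called higher in each group. All 7 astrocyte probes rose from day 5 to 12, by a median of 2.39 in control and 2.09 in CHD5 shRNA cells, and 5 of 7 were lower in CHD5 shRNA cells at day 9 and at day 12. The summed signal of the 7 astrocyte probes was 9278 to 14908 in control and 6772 to 10556 in CHD5 shRNA arrays at day 5, and 40964 to 47980 and 21961 to 25496 at day 12. Of the 8 oligodendrocyte lineage probes 7 and 6 rose over the same days and 1 was lower in CHD5 shRNA cells at days 9 and 12. The microglial markers Cx3cr1, Itgam and Ptprc and the endothelial and pericyte markers Cdh5, Rgs5 and Tek were detected on no array, while the microglial Aif1 and Cd68 were detected on some and had a summed signal of 141 to 232. Of the 3 kept fibroblast probes 2 were lower in CHD5 shRNA cells at day 9 (Col1a2 and Dcn) and 2 at day 12 (Dcn and Lum). In control cells from day 5 to 12 Col1a2 differed by -1.73, and Lum and Dcn by 0.45 and 0.37, all called. Col1a1 and Col3a1 were detected on no array. Of 4 probes for proliferating cells 0 were called with all arrays, and without D9_C_b 2 were lower in CHD5 shRNA cells at day 5 and 1 at day 12. In such bulk RNA fewer cells of a type and less RNA per cell cannot be told apart, and the part of these cells in the changes of ribosomal protein mRNAs over days was not tested.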

How the data were processed

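Total RNA of 18 samples was hybridised to Illumina rat arrays. The deposited signal intensities are per probe, with no normalization or background subtraction per the file headers (the submitters' processing notes name GenomeStudio 1.1.1), and each has a deposited detection p-value. Of 22523 probes, the 11079 whose detection p-value was 0.02 or lower on any of the 18 arrays were kept. After the study's methods, their log2 values were turned into Z-scores within each array, then put back on a log2 scale with the average array SD. R 4.3.3 and limma 3.58.1 (lmFit and eBayes, 6 groups of 3 arrays) gave differences, 95% intervals and Benjamini-Hochberg adjusted p-values over all kept probes, limit 0.05. Fits were tested on simulated data with independent noise and the same spread on every array. That test does not cover an array such as D9_C_b or probes that move together. The second measurements of 6 arrays were used only as an alternative. The members, the gene lists and the tests were chosen with earlier results of these data known.

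Named were fixed landmark members (Rplp1, Rplp2, Rpsa, Rps3, Rps6, Rps19, Rps27a, Rpl3, Rpl5, Rpl10, Rpl11, Rpl22, Rpl38 and paralogs), per comparison the 3 largest called rises and falls or, with none, the largest difference, members not detected on all arrays, and up to 4 called genes of each other list. Further members were named after their values were seen. Of a gene with 2 probes the brighter is given. Letters a, b and c were taken to pair arrays at day 5 only: deviations of same-letter arrays from their group correlated by 0.27, 0.17 and 0.38 there, 0.43, 0.15 and -0.20 at day 9 and 0.05, 0.15 and 0.01 at day 12. Alternatives were other normalizations and filters, 1 probe per symbol, array weights, replicate blocks and leaving out each array. The number of arrays limits the precision. Some members are counted but not reported by name here.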

Additional observations from a re-analysis of the deposited data

How the results depend on the processing

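Counts of called members were recomputed under 14 other settings and with each of the 18 arrays left out. For most of these fits the share of all probes called is not given here, so their counts alone are no result about the members. The change of the CHD5 shRNA difference from day 5 to 9 and from day 9 to 12 gave 0 calls under all of them. For CHD5 shRNA against control, array weights called 2, 8 and 4 members at days 5, 9 and 12, cyclic loess called 3 at day 9, the arrays of the compared groups alone called 3 at day 12, and quantile normalization without D9_C_b (chosen after seeing the data) called 2 at day 5 and 1 at day 9. The change from day 5 to 12 gave 1 call with array weights, 1 with the compared groups alone and 2 with quantile normalization without D9_C_b.

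For the 6 comparisons over days, in the order control day 9 against 5, control 12 against 9, CHD5 shRNA 9 against 5, CHD5 shRNA 12 against 9, control 12 against 5 and CHD5 shRNA 12 against 5, the counts of 4, 0, 1, 0, 2 and 3 became 12, 2, 10, 1, 15 and 14 with quantile normalization, 8, 2, 8, 3, 13 and 17 with cyclic loess, 7, 0, 6, 0, 13 and 11 with neqc, 6, 0, 0, 0, 1 and 0 with median centring, 4, 0, 0, 0, 1 and 2 with no detection filter, 6, 0, 2, 1, 4 and 3 with the filter raised to detection on every array of some group, 0, 0, 23, 7, 6 and 27 with the compared groups alone, 18, 8, 15, 10, 15 and 22 with array weights, and 9, 1, 17, 3, 17 and 21 with quantile normalization without D9_C_b. Quantile normalization and neqc moved these calls toward falls, with 0 higher and 15 and 13 lower in control day 12 against 5. In the same order, quantile normalization without D9_C_b called 22.3%, 7.05%, 23.9%, 5.55%, 39.4% and 31.4% of all probes. With 1 probe per symbol no count moved, with both runs of replicate a averaged they were 5, 0, 1, 0, 2 and 5, and with only members of unchanged RefSeq symbol (added after seeing the data) 4, 0, 1, 0, 2 and 2.

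With 1 array left out, the calls ranged from 0 to 1 at day 5, 0 to 26 at day 9 and 0 to 0 at day 12 for CHD5 shRNA against control, and from 0 to 1 for the change from day 5 to 12. Over days, in the same order, they ranged from 3 to 45, 0 to 44, 0 to 20, 0 to 3, 1 to 9 and 1 to 21. The values 26, 45 and 44 came without day 9 control array a, and 1, 20, 3, 9 and 21 without D9_C_b. Control day 9 against 5 also gave 10 without day 9 control array c.

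The replicate block by letter gave 0 calls for CHD5 shRNA against control on all days and 6, 0, 1, 0, 3 and 4 over days, and the replicate block within a day gave 0, 1 and 0 on days 5, 9 and 12. At day 5, the day where the letters were taken to pair arrays, the count was 0 with and without these blocks. The labels state no pairing. A count of 0 cannot show how much pairing matters there. Among the 27 members recomputed singly, an alternative called the direction opposite to the reported estimate only in control day 9 against 5, for Rps6 (-0.31 with quantile normalization, -0.31 with neqc and -0.29 with quantile normalization without D9_C_b), Rpl10 (-0.39, -0.38 and -0.29), Rpl4 (-0.28 with the last of these) and Rps26 (-0.33 with array weights). The causes were not tested. The slide as a block was not run, since no slide is given here. With 3 arrays a group and 1 dim control array at day 9, differences that involve that group are the least certain.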
